A study of Mus musculus with 30 samples.

Results

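Transcripts of 9 genes that serve glucose release and glycogen storage were measured in the livers of young adult mice whose dams had taken a bisphenol or estradiol. The genes were Pck1, G6pc, Fbp1 and Pcx, which encode gluconeogenic enzymes, Ppargc1a, which encodes a transcriptional coactivator, Ppp1r3b, Ppp1r3c and Ppp1r3g, which encode glycogen-targeting subunits of protein phosphatase, and Gys2, the liver glycogen synthase gene. They were chosen by symbol from the 17990 genes of the count table, with earlier results of these data known. All 9 were found, and all 9 passed the filter on low counts in the female and in the male libraries. The offspring were ICR mice, an outbred stock, aged 10 weeks. Dams drank water with 2,4-BPS, BPSIP, BPS or E2 (estradiol) at 10 ng/mL, set to give 5 µg per kg and day, from the start of pregnancy to weaning, about 40 days, with 8 dams per group. All of them, control dams included, received 0.001% ethanol as the vehicle. Each of the 10 groups (2,4-BPS, BPSIP, BPS, E2 and control, in females and in males) held 3 libraries, each from 1 liver, and per the labels the offspring came from litters of different dams. BPS has a pair of phenol rings joined by a sulfone, 2,4-BPS is its positional isomer, and BPSIP carries an isopropyl ether in place of a hydroxyl group.

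The liver makes new glucose from lactate, amino acids and glycerol when food is scarce and stores glucose as glycogen after meals. Transcription of Pck1 and G6pc is raised by glucagon through cyclic AMP and by forkhead factors such as FOXO, with the product of Ppargc1a as a coactivator, and is lowered by insulin. Glycogen synthase is switched on by removal of phosphate, which is done by protein phosphatase bound to a targeting subunit, and the subunits differ in their response to feeding and hormones.

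Each library summed to between 29711711 and 37719069 counts. The unit of level below is CPM, a gene's counts relative to the library's tested genes after TMM scaling, and ± beside CPM is the SD of 3 libraries. The tissue label was borne out by hepatocyte markers, whose 11 measured genes summed to group means between 89837 and 158590 CPM, with albumin (Alb) the highest. In the libraries labelled male control, 4 Y-linked transcripts summed to 84.7 to 95.3 CPM. Their sum was 131 to 169 CPM in exposed male libraries and at most 0.543 CPM in female libraries. By these 4 transcripts, the libraries labelled male control go against their sex label in part. Comparisons with them are therefore given as comparisons with the libraries labelled male control, and beside them stand comparisons among exposed males only. In whole liver, fewer cells of a type and less RNA per cell cannot be told apart. The sources used here do not give feeding state or hour of collection.

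The proximal promoters of G6pc, Pck1 and Ppp1r3g are printed because these transcripts varied most between groups. The ratio of the highest to the lowest mean among the 9 groups other than the libraries labelled male control was 7.92 for G6pc, 4.35 for Pck1 and 50.1 for Ppp1r3g. Each run covers the 250 bases before the RefSeq start on GRCm38.p6, 5′ to 3′ on the gene's strand, and capitals mark matches to the motifs searched. The G6pc run is chr11:101367466-101367715 (plus strand), the Pck1 run chr2:173152823-173153072 (plus strand) and the Ppp1r3g run chr13:35967656-35967905 (plus strand).
G6pc: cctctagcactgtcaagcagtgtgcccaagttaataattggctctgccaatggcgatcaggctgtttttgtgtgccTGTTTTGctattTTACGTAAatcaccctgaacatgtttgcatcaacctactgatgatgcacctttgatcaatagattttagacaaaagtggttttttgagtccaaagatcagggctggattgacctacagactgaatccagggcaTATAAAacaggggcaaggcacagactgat
Pck1: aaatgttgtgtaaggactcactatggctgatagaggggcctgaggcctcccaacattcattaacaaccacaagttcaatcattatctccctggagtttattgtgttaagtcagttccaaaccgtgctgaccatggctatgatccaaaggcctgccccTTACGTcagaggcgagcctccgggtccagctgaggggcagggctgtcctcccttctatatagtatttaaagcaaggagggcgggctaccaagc
Ppp1r3g: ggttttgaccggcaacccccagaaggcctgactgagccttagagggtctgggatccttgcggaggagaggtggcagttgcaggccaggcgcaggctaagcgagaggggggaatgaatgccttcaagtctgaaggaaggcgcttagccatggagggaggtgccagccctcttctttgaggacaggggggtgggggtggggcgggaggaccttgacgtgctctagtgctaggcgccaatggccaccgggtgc
The motifs were searched on both strands. They were TGACGTCA, the cyclic AMP response element, the forkhead motif TGTTTAC with its variant TGTTTTG, the TATA box TATAAA and, in addition, TTACGT, the core of variant cyclic AMP response elements, which was added after the sequences had been read. G6pc held TGTTTTG starting 174 bases before the start, TATAAA at 29 bases, and TTACGT on both strands, overlapping, at 162 and 160 bases. Pck1 held TTACGT at 93 bases. Among the 7 members with a RefSeq promoter (Ppp1r3b and Gys2 had none in the table), Ppargc1a also held TTACGT, at 135 bases, and no match was found in Ppp1r3g, Fbp1, Pcx or Ppp1r3c. Of 32851 promoters of the same length, 5.56% held TGTTTTG, 12.4% TATAAA, 2.4% TTACGT, 3.17% TGTTTAC and 1.55% TGACGTCA. A match is a run of letters and was not tested as a binding site. Because TTACGT was chosen from these sequences, its share over all promoters is no test of the members. Parts of the motifs were not searched, such as TGACGT, which the Ppp1r3g run holds and the Pck1 run holds on the other strand.

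Per length, Pck1 was the most abundant of the 9 transcripts in each group but BPSIP females, and Ppargc1a was among the scarcest. The deposited FPKM, which divide by the length of the gene, ran over the 30 libraries from 472 to 1899 for Pck1, from 493 to 809 for Fbp1, from 122 to 196 for Pcx and from 30.1 to 231 for G6pc. Fbp1 and Pck1 overlapped in this range, and the lowest Pck1 values were those of BPSIP females, where Fbp1 averaged 672 FPKM and Pck1 474 FPKM. Among the glycogen genes the FPKM ran from 31.8 to 97.3 for Gys2, from 11.2 to 57.4 for Ppp1r3b, from 9.54 to 28.4 for Ppp1r3c and from 0.0604 to 5.95 for Ppp1r3g. Ppargc1a had 0.296 to 0.921 FPKM, computed by the authors over an implied length of 15903 bases. The gluconeogenic enzymes differed in spread as well as level: the highest of the 9 group means was 1.54 times the lowest for Fbp1 and 1.27 times for Pcx, well under the ratios of G6pc and Pck1.

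**Figure D1:**
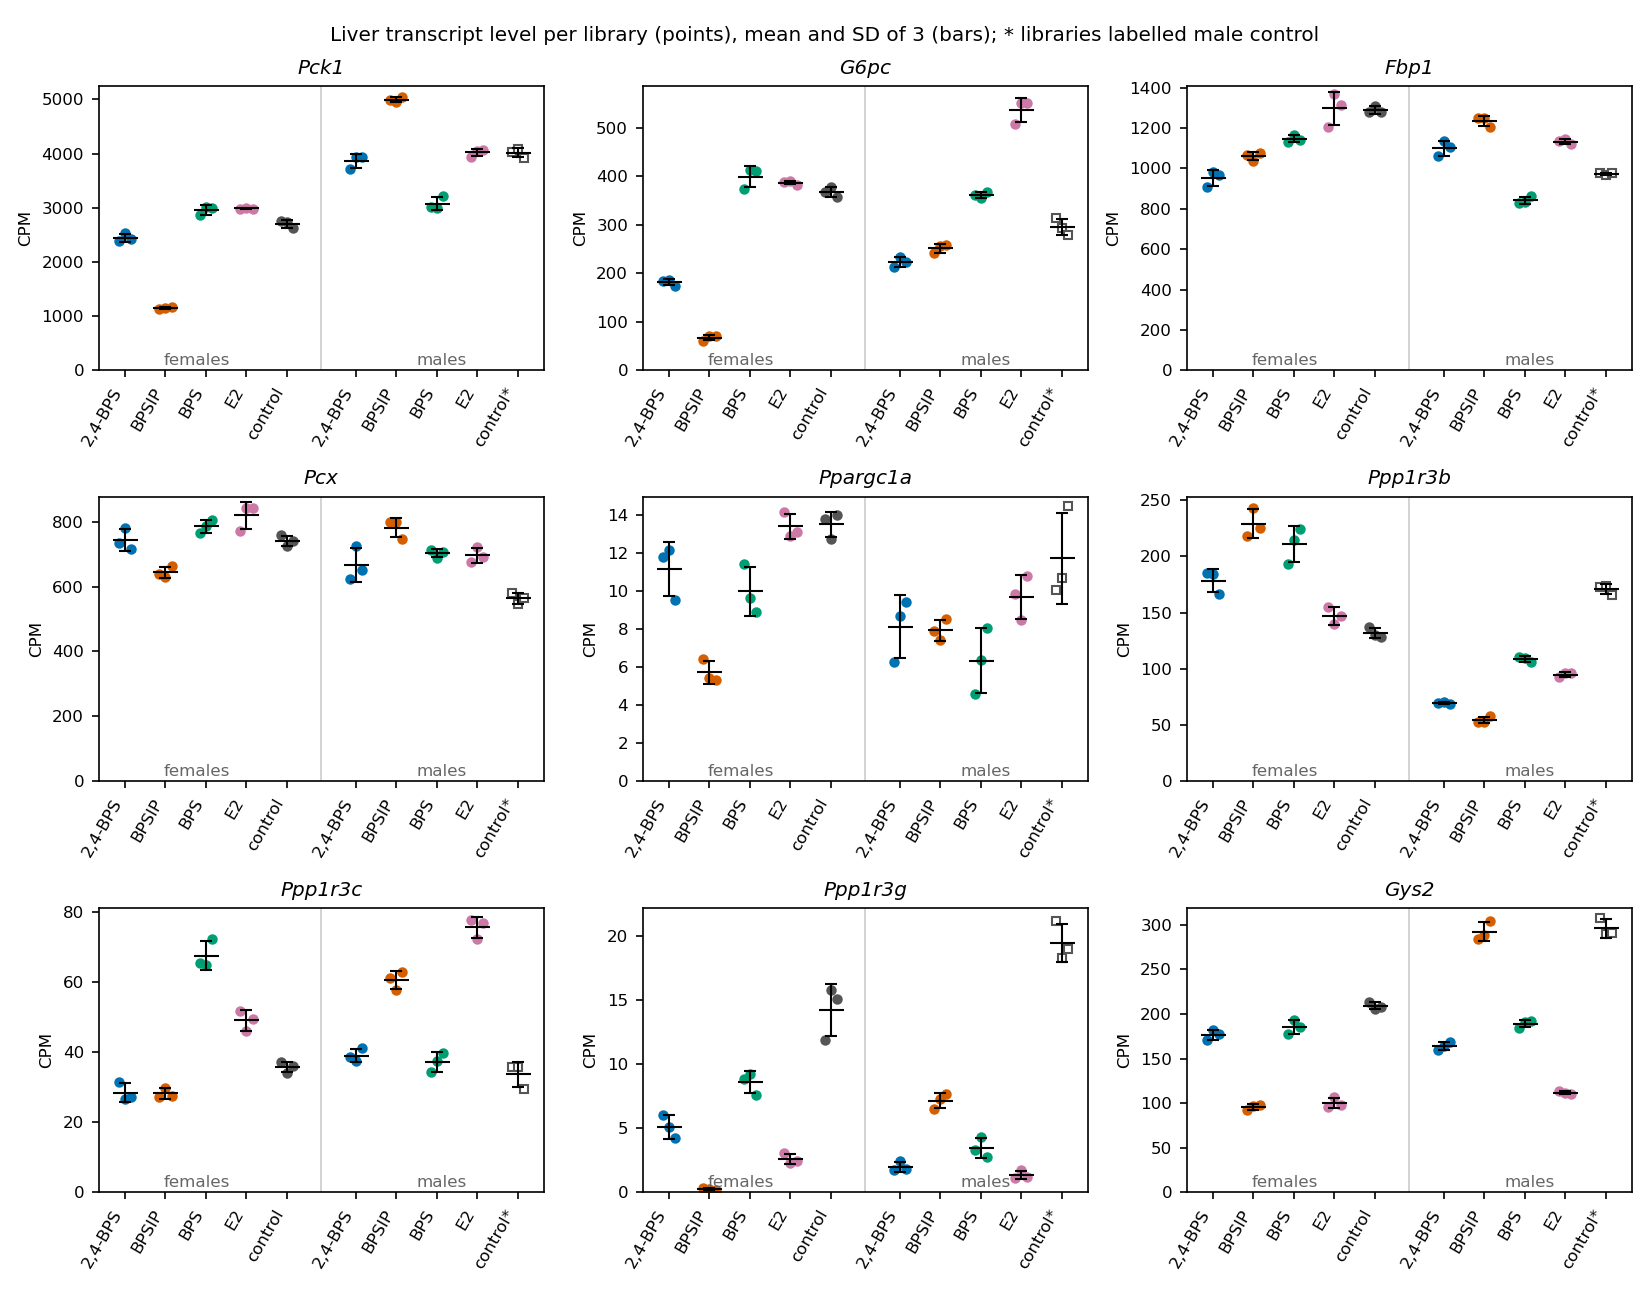
Level of each of the 9 transcripts in CPM (vertical axis, from 0) in every library (points), with the mean and SD of 3 libraries, for 2,4-BPS, BPSIP, BPS, E2 and control in females (left) and males (right); open squares are the libraries labelled male control. BPSIP females hold the lowest Pck1, G6pc and Ppp1r3g points of any group, while BPSIP males hold the highest Pck1 points.

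Females of the 4 exposures were compared with control females to ask which glucose and glycogen transcripts differed in adulthood after early exposure. Calls are those of edgeR's quasi-likelihood test with Benjamini-Hochberg adjustment over the 13874 genes tested, at 0.05, and ± beside a log2 fold change is its standard error. In BPSIP females 8 members fell and 1 rose of 9, where 38.6% of the tested genes were called, 19.2% lower and 19.4% higher. In 2,4-BPS females 6 fell and 1 rose, against a background of 19.3% (8.42% lower, 10.9% higher). In BPS females 4 fell and 3 rose (background 16.8%, of which 7.5% lower and 9.32% higher), and in E2 females 2 fell and 3 rose (21%, of which 10.6% lower and 10.4% higher). The median log2 fold change of the members was -1.13 for BPSIP, -0.27 for 2,4-BPS, 0.09 for BPS and 0.07 for E2, beside medians over all genes between -0.01 and 0.00. The 4 comparisons share the same 3 control libraries. Because the members were chosen with earlier results known, the shares of all genes stand beside their counts as a description, not as a test.

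G6pc, which encodes the phosphatase that frees glucose from its phosphate, showed the largest change among the 4 enzymes in BPSIP and in 2,4-BPS females. It had 60.9, 71.7 and 70.6 CPM in BPSIP females and 185, 186 and 175 CPM in 2,4-BPS females, against 368, 379 and 359 CPM in control females. Neither exposed group overlapped the controls, and every BPSIP library was below every 2,4-BPS library. G6pc fell by 2.45 ± 0.06 on the log2 scale in BPSIP females (edgeR adjusted p = 1.01e-27) and by 1.01 ± 0.06 in 2,4-BPS females (edgeR adjusted p = 1.93e-16). In BPS females it had 374, 413 and 412 CPM and in E2 females 388, 391 and 383 CPM. These groups lay close to control, with log2 fold changes of 0.13 ± 0.06 and 0.07 ± 0.06 that did not pass (edgeR adjusted p = 0.12 and 0.449).

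Pck1, the enzyme that makes phosphoenolpyruvate for gluconeogenesis, had 1131, 1150 and 1167 CPM in BPSIP females, against 2755, 2737 and 2618 CPM in control females. The groups were far apart relative to their spread, and Pck1 fell by 1.24 ± 0.05 on the log2 scale (edgeR adjusted p = 2.48e-21). In the other exposed females the shifts were small. Pck1 had 2378, 2525 and 2430 CPM in 2,4-BPS females (log2 fold change -0.14 ± 0.05), 2859, 3018 and 2994 CPM in BPS females (0.14 ± 0.05) and 2979, 2997 and 2983 CPM in E2 females (0.14 ± 0.05). None of these groups overlapped control, and each passed narrowly, with edgeR adjusted p of 0.0414, 0.0452 and 0.0369. The 2,4-BPS call was lost without any 1 of the control libraries or without 2,4-BPS library 1 or 3 (edgeR adjusted p 0.051 to 0.172). The BPS call was lost without any 1 of the control libraries or without BPS library 2 or 3 (0.0806 to 0.201), and the E2 call without any 1 of the control libraries or without E2 library 3 (0.0652 to 0.173).

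Fbp1, fructose bisphosphatase, and Pcx, the mitochondrial pyruvate carboxylase that opens the pathway, moved less. Fbp1 had 910, 983 and 967 CPM in 2,4-BPS females and 1065, 1039 and 1079 CPM in BPSIP females, against 1279, 1311 and 1279 CPM in control females. It fell by 0.43 ± 0.05 on the log2 scale in 2,4-BPS females and by 0.28 ± 0.05 in BPSIP females (edgeR adjusted p = 3.88e-08 and 2.5e-05). Each 2,4-BPS library was below every BPSIP library, a difference that was not tested. In BPS females Fbp1 fell by 0.16 ± 0.05 (edgeR adjusted p = 0.0276), a call lost without any 1 of the control libraries or without BPS library 1 or 3 (0.0662 to 0.111), and in E2 females the log2 fold change was 0.00 ± 0.05. Pcx fell by 0.20 ± 0.05 in BPSIP females, where it had 638, 628 and 662 CPM, against 757, 725 and 739 CPM in control females (edgeR adjusted p = 0.00144). Pcx averaged 819 ± 41.2 CPM in E2 females and 740 ± 16.3 CPM in control females, and it rose by 0.14 ± 0.05 (edgeR adjusted p = 0.0452). That call was lost without any 1 of the control libraries, without E2 library 2 or 3 (0.068 to 0.174), and in a fit of the 6 libraries alone (0.0543).

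Ppargc1a, the coactivator of gluconeogenic and mitochondrial genes, had 6.41, 5.44 and 5.35 CPM in BPSIP females, against 13.8, 12.7 and 14 CPM in control females. It fell by 1.24 ± 0.12 on the log2 scale (edgeR adjusted p = 2.87e-10). In BPS females it had 11.4, 9.64 and 8.9 CPM, below each control library, and fell by 0.42 ± 0.12 (edgeR adjusted p = 0.0121). The BPS call was lost without control library 3 or BPS library 2 or 3 (0.0522 to 0.0903). Ppargc1a averaged 11.2 ± 1.42 CPM in 2,4-BPS females and 13.4 ± 0.666 CPM in E2 females, and neither difference from 13.5 ± 0.677 CPM in control females passed (edgeR adjusted p = 0.116 and 0.956).

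Gys2, which encodes the synthase that lengthens glycogen chains in the liver, fell in each of the 4 exposed female groups. It had 92.4, 97 and 98.1 CPM in BPSIP females and 96.2, 107 and 98.3 CPM in E2 females, against 214, 206 and 208 CPM in control females. These groups overlapped each other and lay far below control, with log2 fold changes of -1.13 ± 0.05 and -1.06 ± 0.05 (edgeR adjusted p = 4.91e-19 and 6.86e-18). In 2,4-BPS females Gys2 had 170, 182 and 178 CPM (-0.24 ± 0.05, edgeR adjusted p = 0.000935), and in BPS females 178, 194 and 185 CPM (-0.16 ± 0.05, edgeR adjusted p = 0.0295). The BPS call was lost without any 1 of the control libraries or without BPS library 1 or 3 (0.0621 to 0.138).

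Ppp1r3g, a targeting subunit gene whose liver transcript is known in mice to follow feeding, had the widest range of the 9. BPSIP female libraries held 16, 11 and 7 counts of it, or 0.38, 0.285 and 0.19 CPM, against 11.9, 15.8 and 15.1 CPM in control females. Ppp1r3g was near the limit of detection in these libraries, and it fell by 5.61 ± 0.23 on the log2 scale (edgeR adjusted p = 5.43e-21). It had 3.06, 2.3 and 2.45 CPM in E2 females (-2.45 ± 0.17, edgeR adjusted p = 7.33e-14) and 6.02, 5.08 and 4.22 CPM in 2,4-BPS females (-1.47 ± 0.16, edgeR adjusted p = 7.04e-09). It had 8.89, 9.28 and 7.64 CPM in BPS females (-0.72 ± 0.16, edgeR adjusted p = 0.00106). Each of the 4 exposed groups lay below control without overlap, and they did not overlap one another.

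Ppp1r3b, the main hepatic targeting subunit, moved the other way. It had 219, 243 and 226 CPM in BPSIP females, 193, 215 and 225 CPM in BPS females and 185, 184 and 167 CPM in 2,4-BPS females, against 137, 130 and 129 CPM in control females. These 3 groups lay above control without overlap, and Ppp1r3b rose by 0.79 ± 0.06, 0.69 ± 0.06 and 0.44 ± 0.06 on the log2 scale (edgeR adjusted p = 1.95e-13, 4.62e-11 and 5.24e-07). E2 females averaged 147 ± 7.63 CPM, 0.15 ± 0.06 above control, which did not pass (edgeR adjusted p = 0.0683). Ppp1r3c, a targeting subunit also made in muscle, divided the exposures. It had 65.3, 64.9 and 72.1 CPM in BPS females and 51.7, 46 and 49.4 CPM in E2 females, against 37.1, 34.2 and 36.1 CPM in control females, and it rose by 0.92 ± 0.07 and 0.45 ± 0.07 (edgeR adjusted p = 3.29e-12 and 1.03e-05). In 2,4-BPS and BPSIP females it had 26.7 to 31.5 and 27.3 to 29.9 CPM, and it fell by 0.32 ± 0.07 and 0.34 ± 0.07 (edgeR adjusted p = 0.00141 and 0.000286).

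**Figure D2:**
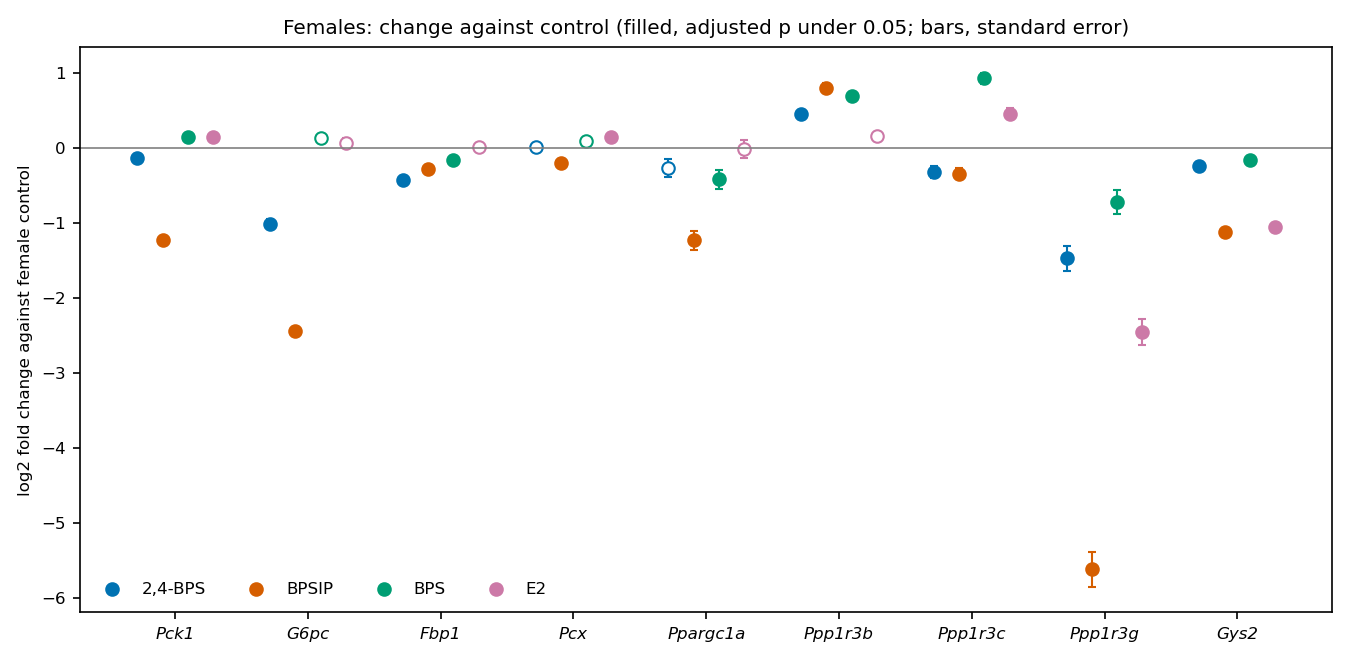
Log2 fold change of each member against control females (vertical axis) for 2,4-BPS, BPSIP, BPS and E2 (colours), with standard errors; filled points have an edgeR adjusted p under 0.05. BPSIP points lie below 0 for each member but Ppp1r3b, with Ppp1r3g at -5.61 and G6pc at -2.45, and BPS and E2 points for G6pc, Fbp1, Pcx and Pck1 lie within 0.16 of 0.

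The number of members called in BPS and E2 females rested on single libraries. Without BPS library 3 or control library 3 the BPS count was 3, and without control library 1 or 2 it was 4, of 7 with all libraries. For E2 it was 3 of 5 without any 1 of the control libraries or without E2 library 3. The counts for BPSIP and 2,4-BPS stayed at 9 and between 6 and 7 when a library was left out. For Ppp1r3b, Ppp1r3c and Ppp1r3g, the calls named above held with each library left out.

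The bisphenols were given at the same dose for the same time, so that isomer and ether could be set against BPS, 2 pairs in each sex. In females, 2,4-BPS had 6 of 9 members lower than BPS and 0 higher, where 19.5% of genes were called (9.23% lower, 10.2% higher), and BPSIP had 7 lower and 0 higher, where 39.3% were called (20.1% lower, 19.2% higher). G6pc was lower by 1.14 ± 0.06 (log2) with 2,4-BPS and by 2.57 ± 0.06 with BPSIP, and Pck1 by 0.28 ± 0.05 and 1.37 ± 0.05 (edgeR adjusted p between 2.36e-28 and 5.22e-05). Ppp1r3c was lower to a like extent with both, by 1.25 ± 0.07 and 1.27 ± 0.07. The pair parted at Gys2, which was lower by 0.97 ± 0.05 with BPSIP and differed by -0.08 with 2,4-BPS (95% interval -0.18 to 0.03, edgeR adjusted p = 0.347). Ppargc1a was likewise lower by 0.81 ± 0.13 with BPSIP and differed by 0.15 with 2,4-BPS (interval -0.09 to 0.40, edgeR adjusted p = 0.42). Ppp1r3b was lower by 0.24 ± 0.06 with 2,4-BPS (edgeR adjusted p = 0.00298), whereas BPSIP differed from BPS by 0.11 (interval -0.01 to 0.23, edgeR adjusted p = 0.152). Fbp1 with BPSIP (-0.12, interval -0.23 to -0.02, edgeR adjusted p = 0.0508, but 0.0338 with DESeq2 and 0.0362 in an edgeR fit of all 30 libraries) and Pcx with 2,4-BPS (-0.08, interval -0.19 to 0.02, edgeR adjusted p = 0.275) did not pass.

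In males the same pairs gave another pattern. With BPSIP 6 of 9 members were higher than with BPS and 2 were lower (background 35.4%, of which 18.6% higher and 16.8% lower), and with 2,4-BPS 2 were higher and 4 lower (27.5%, of which 15.2% higher and 12.3% lower). Pck1 had 4982, 4958 and 5049 CPM in BPSIP males and 3720, 3931 and 3939 CPM in 2,4-BPS males, against 3009, 2995 and 3210 CPM in BPS males. The 3 groups did not overlap, and Pck1 was higher than with BPS by 0.72 ± 0.03 with BPSIP and by 0.35 ± 0.03 with 2,4-BPS (edgeR adjusted p = 2.03e-27 and 6.06e-13). G6pc, with 242, 256 and 258 CPM in BPSIP males and 213, 233 and 224 CPM in 2,4-BPS males, against 362, 356 and 369 CPM in BPS males, was lower with both compounds (-0.50 ± 0.04 and -0.68 ± 0.04, edgeR adjusted p = 5.72e-15 and 1.95e-20). Pck1 and G6pc went opposite ways in males and the same way in females. Gys2 was higher with BPSIP by 0.65 ± 0.04 and lower with 2,4-BPS by 0.19 ± 0.04, and Ppp1r3b was lower with both, by 0.97 ± 0.05 and 0.62 ± 0.05. Pcx and Ppp1r3c did not pass between 2,4-BPS and BPS males (-0.06, interval -0.14 to 0.03, and 0.09, interval -0.05 to 0.23), and neither did Ppargc1a in either pair (0.37, interval 0.03 to 0.71, for 2,4-BPS and 0.34, interval 0.00 to 0.68, for BPSIP).

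Each exposed male group was also compared with the mean of the other 3, a contrast that uses no control library. For BPSIP males 6 members were higher and 2 lower of 9 (background 31.3%, of which 15.9% higher and 15.4% lower). The counts were 5 and 2 for E2 males (31.5%, of which 17.3% and 14.2%), 3 and 4 for BPS males (35.8%, of which 16.9% and 18.9%) and 0 and 6 for 2,4-BPS males (25.8%, of which 13.5% and 12.3%). BPSIP males had the highest Gys2 of these groups, 284, 289 and 304 CPM, where the other exposed males ranged from 110 to 192 CPM (0.96 ± 0.03, edgeR adjusted p = 9.01e-35). E2 males had the highest G6pc, 508, 551 and 551 CPM, against 213 to 369 CPM in the other exposed males (0.99 ± 0.03, edgeR adjusted p = 3.77e-35). They also had the lowest Gys2, 114, 112 and 110 CPM (-0.89 ± 0.04, edgeR adjusted p = 3.16e-30), and the highest Ppp1r3c, 77.5, 72.2 and 76.9 CPM (0.78 ± 0.05, edgeR adjusted p = 3.9e-20). BPS males had the lowest Pck1 and Fbp1, by 0.50 ± 0.03 and 0.48 ± 0.03, with no overlap with the other exposed males. Ppp1r3b was lowest in BPSIP males, at 53.1, 52.8 and 57.9 CPM, and highest in BPS males, at 111, 110 and 106 CPM. For 2,4-BPS males the largest difference was that of G6pc (-0.71 ± 0.04, edgeR adjusted p = 5.41e-25), and the Pcx call (-0.12 ± 0.04, edgeR adjusted p = 0.00588) was lost without 2,4-BPS library 1 (-0.07, edgeR adjusted p = 0.23) or 3 (-0.10, 0.0794). Ppargc1a was lower in BPS males (-0.45 ± 0.14, edgeR adjusted p = 0.00862), a call lost without BPS library 1 (-0.26, 0.205), and higher in E2 males (0.40 ± 0.13, edgeR adjusted p = 0.0162), a call lost without E2 library 1 or 3 (0.0571 and 0.159). The Gys2 call in BPS males (0.09 ± 0.04, edgeR adjusted p = 0.0435) was lost without BPS library 2 or 3 (0.0962 and 0.133) and without the filter on low counts (0.0727).

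Against the libraries labelled male control, 3 members were higher and 5 lower in 2,4-BPS males, where 38.2% of genes were called (18.9% higher, 19.4% lower). The counts were 4 and 4 for BPSIP males (34.9%, of which 17.4% each way), 2 and 6 for BPS males (43.2%, of which 20.6% and 22.7%) and 4 and 3 for E2 males (33.6%, of which 17.2% and 16.4%). Ppp1r3g had 1.77 to 2.45 CPM in 2,4-BPS males, 6.53 to 7.67 CPM in BPSIP males, 2.79 to 4.32 CPM in BPS males and 1.11 to 1.72 CPM in E2 males, against 21.2, 18.3 and 19 CPM in the libraries labelled male control. It was lower in each of the 4 groups, with log2 fold changes of -3.27 ± 0.19 for 2,4-BPS, -1.43 ± 0.16 for BPSIP, -2.50 ± 0.17 for BPS and -3.84 ± 0.20 for E2. Its level in the libraries labelled male control was also above that of female control, 14.3 ± 2.05 CPM. A mixed comparison combined every library of exposed males with the control female library of the same number. The female share of 41.9% was estimated from the Y-linked genes alone. Whether it holds for other genes was not tested, so the mixed comparison need not set like against like. Mixed libraries are averages, and the 4 mixed groups share the same 3 control female libraries. Standard errors, calls and adjusted p after mixing therefore do not measure the spread between animals. For Gys2 in BPSIP males the standard error was 0.043 before mixing and 0.028 after it. Means of summed male-biased liver genes were 23831 CPM in labelled libraries, 24160 to 30801 CPM in exposed males and 3310 CPM in control females. Those of female-biased liver genes were 6215, 1018 to 3682 and 13671 CPM in the same order. By the male-biased sum, the labelled libraries (21612 to 25179 CPM) overlapped E2 males (21584 to 25641 CPM), unlike by the Y-linked sum. After mixing, 40.1%, 38.2%, 44.2% and 37.7% of genes were called in the 4 comparisons, and the Ppp1r3g values, in the same order, were -1.41, -0.94, -1.29 and -1.48. Ppp1r3b was lower too, with -1.29 ± 0.05, -1.64 ± 0.05, -0.67 ± 0.05 and -0.84 ± 0.05 before mixing and -0.83, -0.97, -0.55 and -0.64 after it. Gys2 was lower in 2,4-BPS, BPS and E2 males, with -0.85, -0.66 and -1.39 before and -0.70, -0.60 and -0.95 after mixing. In BPSIP males Gys2 differed by -0.01 ± 0.04 before mixing and by -0.22 after it (edgeR adjusted p = 0.882 and 6.54e-08). By means, control females and exposed males both lay below the labelled libraries for Ppp1r3g, Ppp1r3b and Gys2. Mixing could therefore not reverse these directions.

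Several enzyme values kept their direction after mixing and others did not. By means, control females lay above the labelled libraries for Pcx, Fbp1, G6pc and Ppp1r3c and below them for Pck1. Where an exposed group lay on that same side, mixing could not reverse the direction, so a kept direction adds no support. Adjusted p after mixing do not measure the spread between animals here either. Pcx was higher in the 4 groups, with 0.25, 0.48, 0.31 and 0.32 before mixing and 0.30, 0.43, 0.33 and 0.33 after it for 2,4-BPS, BPSIP, BPS and E2. Fbp1 was higher in 2,4-BPS, BPSIP and E2 males (0.18, 0.35 and 0.23 before mixing and 0.27, 0.36 and 0.29 after it). In BPS males Pck1 was lower (-0.40 and -0.48) and G6pc higher (0.28 and 0.28) both ways. In 2,4-BPS males Pck1 differed by -0.05 before mixing and -0.27 after it (edgeR adjusted p = 0.241 and 8.9e-14). Pck1 was higher in BPSIP males by 0.32 ± 0.03 before mixing (edgeR adjusted p = 4.45e-12) and differed by -0.02 after it (0.453). For E2 males it differed by 0.01 before mixing and was lower by 0.24 after it (edgeR adjusted p = 0.815 and 2.06e-12). G6pc was lower in BPSIP males by 0.22 ± 0.04 before mixing and differed by 0.02 after it, and in 2,4-BPS males it was lower by 0.40 ± 0.04 before and differed by -0.06 after it (edgeR adjusted p = 0.667 and 0.148 after mixing). Fbp1 in BPS males was lower by 0.23 ± 0.04 before and higher by 0.06 after mixing (edgeR adjusted p = 6.54e-07 and 0.0218). G6pc was higher in E2 males both ways, by 0.87 ± 0.04 and 0.63, and Ppp1r3c likewise, by 1.18 ± 0.07 and 0.77. Other calls rested on single libraries: Ppargc1a was lower in 2,4-BPS and BPSIP males by 0.53 ± 0.16 and 0.55 ± 0.16, but not without the third library labelled male control (-0.34 and -0.38, edgeR adjusted p = 0.132 and 0.103), nor, for 2,4-BPS, without 2,4-BPS library 1 (-0.37, 0.0962), nor after mixing (0.218 and 0.185). Ppp1r3c was higher in 2,4-BPS males by 0.22 ± 0.07, but not without the third library labelled male control (0.13, 0.176) or 2,4-BPS library 3 (0.18, 0.0701).

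Over the 4 exposed groups, females differed from males in 9 of 9 members, 4 higher and 5 lower, where 58.4% of genes were called (28.5% higher, 29.9% lower). Ppp1r3b alone had sexes that did not overlap, as 5.65% of genes did. It ran from 140 to 243 CPM with a median of 189 CPM in 12 exposed females, against 52.8 to 111 CPM with a median of 81.8 CPM in 12 exposed males, and was higher in females by 1.25 ± 0.03 (log2, edgeR adjusted p = 5.38e-46). Pck1 ran from 1131 to 3018 CPM (median 2692) in exposed females, against 2995 to 5049 CPM (median 3942) in exposed males, and was lower in females by 0.82 ± 0.02 (edgeR adjusted p = 3.66e-42). G6pc and Gys2 were lower in females by 0.63 ± 0.03 and 0.42 ± 0.02, and Ppp1r3c by 0.33 ± 0.04, with overlapping ranges. Ppargc1a was higher by 0.28 ± 0.08, Pcx by 0.07 ± 0.02 and Fbp1 by 0.05 ± 0.02. The Fbp1 call (edgeR adjusted p = 0.0318) was lost without female 2,4-BPS library 2, female E2 library 2 or male 2,4-BPS library 1 (0.0553 to 0.0612). Ppp1r3g was lower by 0.26 ± 0.11 (edgeR adjusted p = 0.0384), a call lost without any 1 of 10 of the 24 exposed libraries (0.0568 to 0.125), which were female 2,4-BPS 3, BPSIP 2 and 3, BPS 3 and E2 2 and 3, and male 2,4-BPS 2, BPSIP 3, BPS 2 and E2 2. It was also lost without the filter on low counts (0.0545) and in a fit without control libraries (0.0652).

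The difference between the sexes depended on the exposure. In the fit of 30 libraries, the distance of BPSIP from the other 3 exposed groups differed between females and males in 9 of 9 members, where 41.7% of genes were called. For BPS and E2 it differed in 8 each (background 29.3% and 30.4%), and for 2,4-BPS in 5 (background 28%). With BPSIP, Pck1 was 1.28 ± 0.04 below the other exposures in females and 0.46 ± 0.03 above them in males, on the log2 scale. Gys2 was 0.63 ± 0.04 below in females and 0.95 ± 0.04 above in males, and Ppp1r3c 0.69 ± 0.06 below and 0.34 ± 0.06 above. Ppp1r3g showed the widest split, at -4.06 ± 0.23 in females and 1.76 ± 0.14 in males. Ppp1r3b ran the other way, 0.37 ± 0.04 above in females and 0.72 ± 0.05 below in males. G6pc was below in both sexes, by 2.17 ± 0.05 and 0.48 ± 0.04. Estimates for BPSIP had opposite signs in 8 of 9 members, Ppargc1a among them with a male value of 0.00 ± 0.12. Signs were opposite in 4 of 9 members for 2,4-BPS, 5 for BPS and 3 for E2. The share of all genes with opposite signs was not computed, so these counts describe the members only.

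With BPS, Ppp1r3c was 0.99 ± 0.06 above the other exposures in females and 0.60 ± 0.06 below them in males, and Pck1 was 0.54 ± 0.03 above and 0.47 ± 0.04 below. With E2, Ppp1r3b was 0.48 ± 0.04 below in females and 0.35 ± 0.04 above in males, while Gys2 was below in both (0.54 ± 0.04 and 0.90 ± 0.04) and G6pc above in both (1.19 ± 0.04 and 0.97 ± 0.04). With 2,4-BPS, Ppp1r3g was 1.45 ± 0.15 above in females and 0.68 ± 0.17 below in males, and Gys2 was 0.54 ± 0.04 above and 0.16 ± 0.04 below. In females these distances are set against a mean that includes the low BPSIP group.

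**Figure D3:**
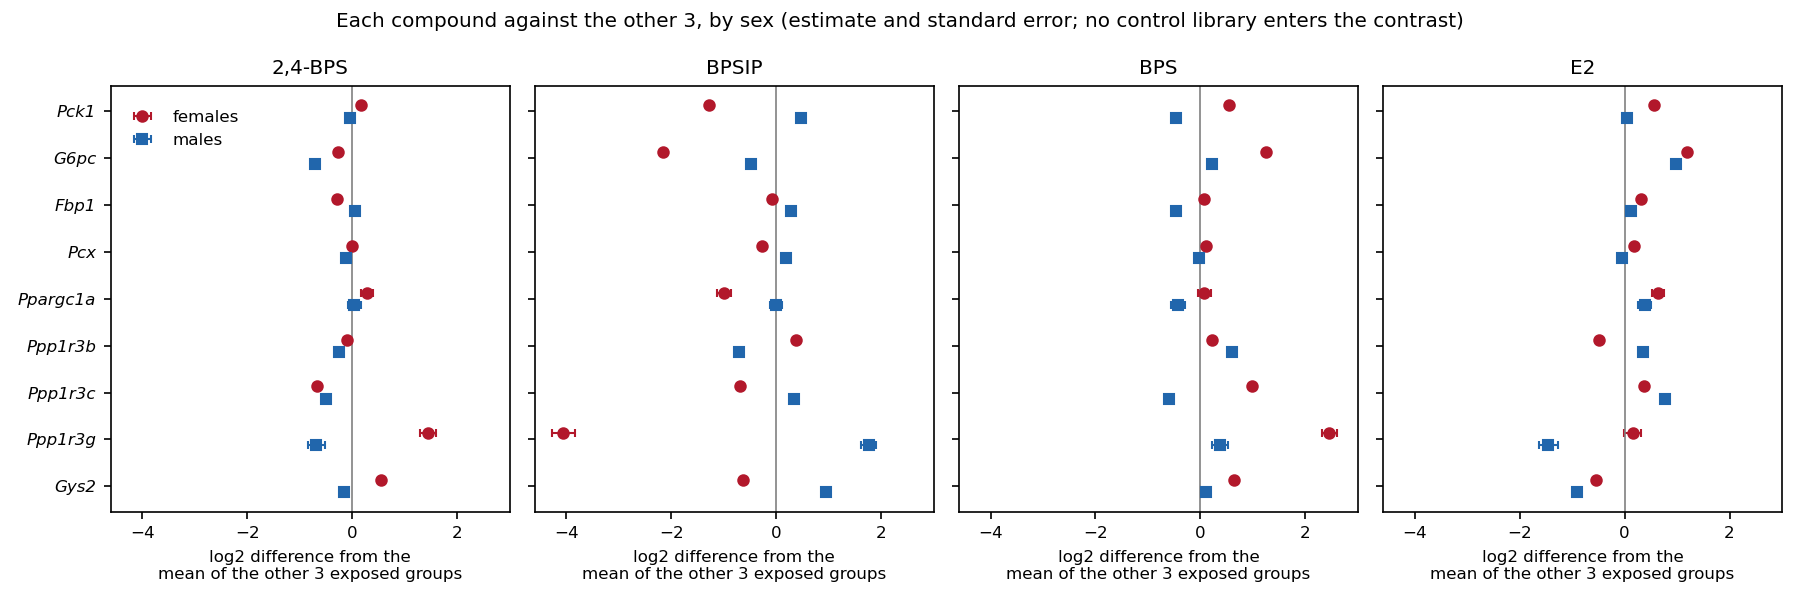
Log2 difference of each exposure from the mean of the other 3 exposed groups (horizontal axis) for the 9 members, in females (red circles) and males (blue squares), with standard errors. In the BPSIP panel Pck1, Gys2, Ppp1r3c and Ppp1r3g lie left of 0 in females and right of 0 in males, while G6pc lies left of 0 in both.

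The makeup of the 7 measured targeting subunits was set out per length within each library. Ppp1r3b made up 81.2% ± 0.209 (SD, n = 3) of the summed FPKM in BPSIP females, 75.2% ± 1.36 in 2,4-BPS females, 61.7% ± 1.42 in BPS females and 62.0% ± 0.315 in E2 females, against 61.2% ± 1.10 in control females. In males it made up 31.8% ± 0.552 with BPSIP, 49.2% ± 1.31 with 2,4-BPS, 60.7% ± 2.10 with BPS and 41.5% ± 1.11 with E2, against 66.6% ± 1.48 in the libraries labelled male control. BPSIP stood at the high end in females and at the low end in males. Ppp1r3c took most of the rest, with 17.2% ± 0.177 in BPSIP females and 60.6% ± 0.967 in BPSIP males. Ppp1r3b exceeded Ppp1r3c in 3 of 3 libraries of each female group, of BPS males and of those labelled male control, in 2 of 3 of 2,4-BPS males, and in 0 of 3 of BPSIP and of E2 males. Ppp1r3g made up 0.139% ± 0.0502 in BPSIP females and 9.09% ± 1.44 in control females. No test was run on these shares. Ppp1r3a, Ppp1r3d, Ppp1r3e and Ppp1r3f were the other subunits measured, and none of them exceeded a group mean of 1.18%.

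**Figure D4:**
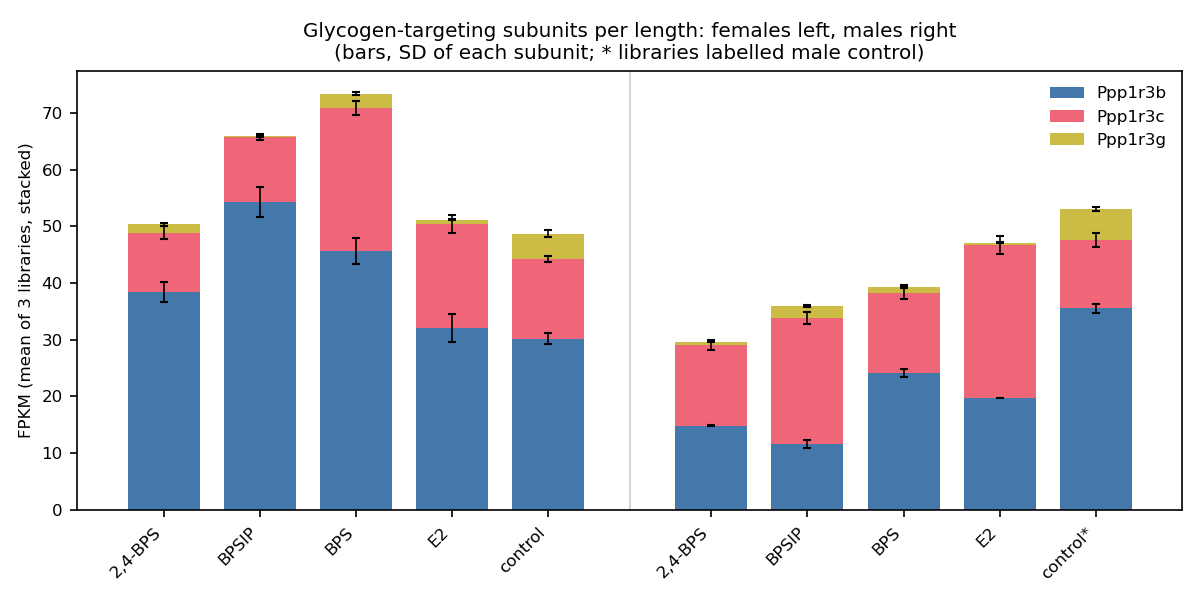
Stacked mean FPKM of Ppp1r3b, Ppp1r3c and Ppp1r3g (vertical axis) in 3 libraries per group, females left and males right, with the SD of each subunit drawn at the top of its segment; the asterisk marks the libraries labelled male control. Ppp1r3b forms the larger segment in each female group, and Ppp1r3c in BPSIP and E2 males.

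Other genes of the pathway were counted in lists chosen by function, without the 9 members. Of 24 further genes listed as gluconeogenic enzymes and transporters and tested in females, 1 rose and 10 fell with BPSIP, by edgeR's test. With 2,4-BPS 4 rose and 5 fell, with BPS 7 rose and 3 fell, and with E2 7 rose and 7 fell. The shares called were 45.8%, 37.5%, 41.7% and 58.3%, beside 38.6%, 19.3%, 16.8% and 21% of all genes for BPSIP, 2,4-BPS, BPS and E2. Of 24 further glycogen genes, 0 rose and 6 fell with BPSIP, 0 and 4 with 2,4-BPS, 3 and 1 with BPS, and 1 and 5 with E2. Their shares of 25%, 16.7%, 16.7% and 25% were near or below those of all genes. Medians of these lists lay between -0.19 and 0.06, nearer 0 than the member median for BPSIP. In BPSIP females the largest falls of the enzyme and transporter list were those of Lpin1 and of Slc2a2, the hepatic glucose transporter. Lpin1 encodes a phosphatidate phosphatase and coactivator, so it is neither a gluconeogenic enzyme nor a transporter. It had 65.4 CPM in BPSIP females against 258 CPM in control females (-1.98 ± 0.08). Slc2a2 had 156 CPM in BPSIP females against 293 CPM in control females (-0.91 ± 0.06). Lpin1 was also the largest rise of that list in 2,4-BPS and BPS females (431 and 512 CPM, 0.75 ± 0.07 and 1.00 ± 0.07). Ugp2, which makes the glucose donor for glycogen, fell with BPSIP and 2,4-BPS (-0.70 ± 0.05 and -0.55 ± 0.05). Stbd1, which anchors glycogen to membranes, fell with each of the 4 exposures (-0.46 to -0.79). With E2 Pygl, the liver glycogen phosphorylase, fell by 0.57 ± 0.05, and with BPS Gbe1, the branching enzyme, rose by 0.50 ± 0.06.

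Of 20 genes of glycolysis and glucose uptake, 7 rose and 9 fell with BPSIP, 5 and 3 with 2,4-BPS, 4 and 2 with BPS, and 2 and 11 with E2, or 80%, 40%, 30% and 65% of the list. Beside this list and those below, 38.6%, 19.3%, 16.8% and 21% of all genes were called in the same order. Of 15 genes of insulin signalling and response, 3 rose and 8 fell with BPSIP, 5 and 4 with 2,4-BPS, 5 and 3 with BPS, and 4 and 3 with E2, or 73.3%, 60%, 53.3% and 46.7%. Igfbp1, which insulin represses, averaged 7.11 CPM in BPSIP females, 44.2 CPM in 2,4-BPS females, 194 CPM in BPS females and 186 CPM in E2 females, against 77.5 CPM in control females. It fell with BPSIP and 2,4-BPS (log2, -3.45 ± 0.07 and -0.80 ± 0.06) and rose with BPS and E2 (1.34 ± 0.06 and 1.26 ± 0.06). Irs2, an insulin receptor substrate gene, fell by 1.66 ± 0.10 with BPSIP. Pdk4, a kinase that restrains pyruvate oxidation, fell by 1.22 ± 0.12 with BPSIP and rose by 0.74 ± 0.11 with BPS and 1.11 ± 0.11 with E2. Among regulators of gluconeogenesis, 5 of 31 rose and 13 fell with BPSIP, 8 and 6 with 2,4-BPS, 11 and 3 with BPS, and 7 and 6 with E2, or 58.1%, 45.2%, 45.2% and 41.9%. Fgf21, a fasting hormone of the liver, fell by 2.76 ± 0.23 with BPSIP and 1.12 ± 0.20 with 2,4-BPS and rose by 0.90 ± 0.19 with E2. Onecut1, a hepatocyte transcription factor, rose with BPSIP, 2,4-BPS and BPS, by 1.33 ± 0.16, 1.05 ± 0.16 and 1.39 ± 0.16. Pklr, the liver pyruvate kinase, fell with E2 by 0.87 ± 0.05. Srebf1, an insulin-induced lipogenic factor, rose with BPSIP (0.67 ± 0.05, 190 CPM in BPSIP females against 119 CPM in control females) and fell with E2 by 1.02 ± 0.06.

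Transcripts of other cells and of the clock also moved with the groups. In females 38.6%, 19.3%, 16.8% and 21% of all genes were called with BPSIP, 2,4-BPS, BPS and E2. Of 12 Kupffer cell and macrophage markers, 11 rose and 0 fell with BPSIP and with 2,4-BPS in females, 5 fell with BPS and 8 with E2, or 91.7%, 91.7%, 41.7% and 66.7% of the list. Their sum was 2203 to 2503 CPM in BPSIP females and 1844 to 1994 CPM in 2,4-BPS females, against 1395 to 1452 CPM in control females, and no marker was at 0. Of 9 neutrophil markers 6 rose with BPSIP, while 4 fell with 2,4-BPS, 8 with BPS and 5 with E2, and of 11 lymphocyte markers 5 rose with BPSIP and 6 fell with BPS. Of 18 clock genes, 3 rose and 10 fell with BPSIP, 6 and 4 with 2,4-BPS, 8 and 7 with BPS, and 4 and 13 with E2, which is 72.2%, 55.6%, 83.3% and 94.4% of the list. Dbp, a clock output gene, averaged 10.9 CPM in E2 females and 50.5 CPM in BPSIP females, against 105 CPM in control females, and Arntl, a core clock gene, 19.6 CPM in E2 females and 7.89 CPM in BPSIP females, against 2.88 CPM in control females. Of 11 hepatocyte markers, 1 rose and 3 fell with BPSIP. Their sum was 122540 to 138470 CPM in BPSIP females, against 132280 to 137010 CPM in control females, and these ranges overlapped. The other exposed females lay above control without overlap. Their sums were 150210 to 167670 CPM with 2,4-BPS, 138040 to 154670 CPM with BPS and 151220 to 158770 CPM with E2. In males, against the libraries labelled male control, 38.2%, 34.9%, 43.2% and 33.6% of all genes were called with 2,4-BPS, BPSIP, BPS and E2. Of the 12 Kupffer cell and macrophage markers 10, 10, 11 and 11 were lower in the same order, and none was higher. Their sum was 714 to 909 CPM in exposed males, against 1122 to 1234 CPM in those libraries and at least 1181 CPM in female libraries. Of the 18 clock genes 12, 9, 12 and 10 were lower and 5, 5, 4 and 5 higher in the same order. Neutrophil markers were higher with E2 in 7 of 8 tested, with a sum of 42.1 to 46.5 CPM in E2 males, against 6.41 to 15.2 CPM in those libraries. The hepatocyte marker sum was 88378 to 115960 CPM in exposed males, against 139090 to 144550 CPM in those libraries. By Y-linked transcripts the libraries labelled male control go against their sex label in part, so exposure and sex cannot be told apart in these male counts. The sum of 12 periportal and pericentral markers was lowest in BPSIP females, at 8594 to 9252 CPM, against 11991 to 12075 CPM in control females, and highest in BPSIP males, at 17244 to 17914 CPM, against 13460 to 14032 CPM in the libraries labelled male control. This sum joins markers of opposite lobule zones, so it cannot show a shift between them. BPSIP females and BPSIP males were also the ends of the Pck1 order, and a link to this sum was not tested. The part of these other cells, of the lobule zones and of the clock in the members' differences was not tested.

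Across the 9 groups other than the libraries labelled male control, the genes of similar profile differed from member to member. For each member the 3 genes with the highest Pearson correlation of mean log2 CPM were taken, as a description over 9 group means that share libraries and scaling. The genes considered numbered 11482, a count that includes the 9 members. Pck1 was followed most closely by Cyp2d22 (r = 0.992), Selenoo (0.985) and Klf9 (0.974), and G6pc by Fbxo8 (0.961), Usp38 (0.955) and Zfp622 (0.947). Ppp1r3b was followed by the interferon-induced genes Herc6 (0.971), Ifit1 (0.970) and Ifit2 (0.964). Gys2 was followed by Pcsk4 (0.990), Fam120b (0.933) and Cyp4b1 (0.931), and Ppp1r3g by Rgs16 (0.961), Pgghg (0.948) and Ccdc191 (0.947). The nearest profile was that of Crk for Ppp1r3c (0.955), Dixdc1 for Ppargc1a (0.971), Zfp574 for Pcx (0.963) and Dock9 for Fbp1 (0.920). Members were not candidates for each other.

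In the order of the 10 group means, BPSIP females were lowest for Pck1, G6pc, Ppargc1a, Ppp1r3c, Ppp1r3g and Gys2. For Ppp1r3c, BPSIP females (27.3 to 29.9 CPM) overlapped 2,4-BPS females (26.7 to 31.5 CPM), which held the lowest library. For Pck1 the order ran from BPSIP females through 2,4-BPS and control females to BPS and E2 females and BPS males, whose libraries overlapped, then to 2,4-BPS males, the libraries labelled male control and E2 males, which overlapped, and to BPSIP males alone at the top. For G6pc it ran from BPSIP females, 2,4-BPS females, 2,4-BPS males and BPSIP males, each separate from the next, through the libraries labelled male control to BPS males and control females, E2 and BPS females, and E2 males alone at the top. Gys2 was lowest in BPSIP and E2 females, which overlapped, and highest in BPSIP males and the libraries labelled male control, which overlapped. For Ppargc1a each neighbour in the order overlapped the next.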

How the data were processed

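Per the labels, RNA was sequenced from 30 livers, 3 in each of 10 groups, and each replicate is a separate animal. The authors deposited whole-number read counts per gene and FPKM. The submitters' processing notes name HISAT2, HTSeq, DESeq2 and R 3.2.0; the sources used here give no build, annotation, strand setting or other version. The deposited FPKM equal the counts divided by the library sum and 1 length per gene, to within a relative deviation of 3.46e-06. Libraries held 29711711 to 37719069 counts, and the member with the fewest counts in a library was Ppp1r3g, with 7.

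The counts were analysed with edgeR 4.0.16 in R 4.3.3: filterByExpr, TMM factors (0.939 to 1.12), robust quasi-likelihood fits of 15 female libraries (13874 genes), 15 male libraries (13474) or all 30 (14131), and Benjamini-Hochberg adjustment over all genes of a fit, with calls at 0.05. There were 21 comparisons. All 9 members were named. Other genes were taken, per list and female comparison, from the 2 with the largest change each way among those called with a mean of at least 1 CPM. A gene that this rule names is not reported here. Similar profiles were the 3 highest Pearson correlations of group means. The members, gene lists and named genes were chosen with earlier results of these data known. Alternatives were DESeq2 1.42.0, RLE scaling, no filter, other sets of libraries, a replicate block, the mixed comparison and leaving out each library. The code was tested on simulated data. Promoter sequences are those of RefSeq on GRCm38.p6 and were matched by symbol.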

Additional observations from a re-analysis of the deposited data

Results flagged for a closer look

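The distance of each exposure from the other 3 exposed groups was tested for a difference between females and males, as an interaction in the 30-library edgeR fit with adjustment over 14131 genes. The 30 member differences that passed are given here as female minus male, on the log2 scale. For BPSIP they were -1.74 for Pck1, -1.69 for G6pc, -0.37 for Fbp1, -0.46 for Pcx, -0.99 for Ppargc1a, 1.09 for Ppp1r3b, -1.03 for Ppp1r3c, -5.82 for Ppp1r3g and -1.58 for Gys2. For BPS they were 1.01 for Pck1, 1.03 for G6pc, 0.52 for Fbp1, 0.50 for Ppargc1a, -0.40 for Ppp1r3b, 1.59 for Ppp1r3c, 2.08 for Ppp1r3g and 0.53 for Gys2. For E2 they were 0.52 for Pck1, 0.21 for G6pc, 0.19 for Fbp1, 0.22 for Pcx, -0.83 for Ppp1r3b, -0.39 for Ppp1r3c, 1.61 for Ppp1r3g and 0.36 for Gys2. For 2,4-BPS they were 0.21 for Pck1, 0.44 for G6pc, -0.35 for Fbp1, 2.13 for Ppp1r3g and 0.70 for Gys2.

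The calls for Ppargc1a with BPS, G6pc with E2 and Fbp1 with E2 rested on single libraries. Ppargc1a did not pass without female BPS library 1 (0.41, edgeR adjusted p = 0.109) or male BPS library 1 (0.33, 0.189). G6pc did not pass without male E2 library 1 (0.16, edgeR adjusted p = 0.0581), nor Fbp1 without female E2 library 2 (0.12, 0.0688). The 4 exposures enter each other's comparison group, so these differences are not independent of one another.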

How the results depend on the processing

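Of 189 member results, 153 were called, and 130 of these kept their call under each alternative run. Over 3249 alternative values, 3126 kept direction and side of the threshold, 71 lost the call, 30 gained it and 22 changed sign. When 1 library was left out, the member count ranged from 3 to 6 for BPS females (7 with all) and from 3 to 5 for E2 females (5 with all). Mixing changed the sign of Pck1 (-0.020) and G6pc (0.020) for BPSIP males, Fbp1 for BPS males (0.062) and Pck1 for E2 males (-0.24). Leaving out 1 library gave -0.027 to 0.064 for Fbp1 and -0.054 to 0.019 for Ppargc1a in E2 females, and -0.035 to 0.039 for Pcx in 2,4-BPS females. In males against the labelled libraries it gave -0.044 to 0.025 for Gys2 with BPSIP and -0.0020 to 0.024 for Pck1 with E2. Among exposed males it gave -0.043 to 0.0018 for Pck1 and -0.075 to 0.21 for Ppargc1a with 2,4-BPS, and -0.056 to 0.074 for Ppargc1a with BPSIP. Without the filter on low counts the Pck1 calls in 2,4-BPS and BPS females were lost (edgeR adjusted p = 0.0609 and 0.0593), and the BPS call also with RLE scaling (0.0512). Same-numbered libraries showed no shared deviation by the median correlation (-0.019 in females and -0.0176 in males). Of 30 such pairs in each sex, 2 in females and 1 in males exceeded 0.1. A litter, day or batch shared behind some numbers was not tested. The replicate block changed the call of Fbp1 alone, for BPSIP against BPS females (-0.12, edgeR adjusted p = 0.039). Calls were gained for Ppp1r3b in E2 females with all 30 libraries (0.16, edgeR adjusted p = 0.0283), G6pc in BPS females with 6 libraries (0.12, 0.0371) and, with DESeq2, Fbp1 in 2,4-BPS against the other exposed males (0.064, 0.028) and the Pcx sex difference of BPS (0.13, 0.047). The cause of these changes was not tested.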
